A study of Homo sapiens with 80 samples.

Results

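Replication-dependent histone genes encode the histones that package newly made DNA: the linker histone H1 and the core histones H2A, H2B, H3 and H4. They are transcribed mainly in S phase from clusters of short genes without introns. Their mRNAs end in a conserved stem-loop in place of a poly(A) tail, and the stem-loop binding protein SLBP controls their processing, translation and decay. Libraries made by depletion of ribosomal RNA, as here, keep such mRNAs, whereas poly(A) selection loses most of them.

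The genes were chosen by their symbols (H1-1 to H1-6 and the numbered H2AC, H2BC, H3C and H4C genes, without pseudogenes) and by a mean raw count over the 80 libraries of at least 10. Of 60663 genes in the count table, 67 had such a symbol and 61 passed: 5 of class H1, 14 of H2A, 17 of H2B, 11 of H3 and 14 of H4. The mean count is thus what selected them and is given only as a description. Just inside the threshold were H2AC7 with a mean of 12.1 counts and H2BC3 with 15.9, and just outside were H2BC1 with 7.23 and H2AC1 with 4.04. H1-1, H3C4, H3C6 and H4C7 were lower still.

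RNA was measured in Jurkat T cells of clone E6-1, a human leukemic T lymphocyte line, as counts of read pairs per gene. In the 9 g experiment, with 6 libraries in each group, control cells stood in pipettes at normal gravity, 15 min for Ctrl and 60 min for Ctrl60. The others spent time in a pipette centrifuge at 9 g: the names hypg20s and hypg75s give seconds (20 and 75), and the names hypg3, hypg5, hypg7, hypg9, hypg15 and hypg60 give minutes (3, 5, 7, 9, 15 and 60). In the other experiment, with 4 libraries in each group, cells were lysed directly (Ctrl300), after 5 min at 300 g in a tabletop centrifuge and a pause of 1 min (wait1min), 4 min (wait4min) or 15 min (wait15min), or after 5 min at 42 °C (heat). The column names for Ctrl60 mention HEPES, and those for wait1min and wait4min read instant and 1min, so the titles were followed, the pauses carry that doubt, and hypg60, whose column names do not mention HEPES, may differ from Ctrl60 in it as well. All cells are of 1 line, and nothing shows that the libraries of a group came from separate cultures, so p-values measure only the spread between these libraries.

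Depth ran from 22634465 to 41893490 counts in the 59 libraries of the 9 g experiment that were used and from 24417717 to 41220541 in the 20 of the other. Library 75, of hypg15, was left out because it held 0 counts on the chromosome 6 histone genes. All 11 T lymphocyte markers checked were detected, with LCK highest at 1168 CPM (read counts scaled to a common library total), and markers of other cell types were low apart from CD79A at a mean of 55.2 CPM.

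The stretches below show the shared mark of these mRNAs, the stem-loop, taken from the GENCODE v29 transcripts on GRCh38, with the stem and loop in capitals and 5 flanking bases on each side. They were picked to show each of the 4 forms found, and the H3C10 and H2BC26 lines show the same stretch in genes of different classes.
H3C10: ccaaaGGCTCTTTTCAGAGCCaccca
H2BC26: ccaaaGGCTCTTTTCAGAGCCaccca
H2BC4: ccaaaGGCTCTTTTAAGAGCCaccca
H4C8: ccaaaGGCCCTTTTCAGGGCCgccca
H4C9: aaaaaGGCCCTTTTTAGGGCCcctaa
They lie at chr6:27810511-27810536 (plus strand), chr1:228458533-228458558 (plus), chr6:26123467-26123492 (minus), chr6:26285126-26285151 (minus) and chr6:27139649-27139674 (plus).

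The search pattern was GGNNNNTTNNNNNNCC with the 2 arms of the stem complementary. It matched 27 of the 59 histone genes that had a transcript in that release (45.8%) and 176 of 58617 other genes (0.30%). Of the 32 histone genes without a match, 26 had only transcript records that run from start to stop codon, so the window that would hold the stem-loop was not searched. The form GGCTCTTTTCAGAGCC was found in transcripts of 15 genes of classes H2A, H2B and H3. The match in H2BC15 at chr6:27865773-27865798 (plus strand) lies beyond the end of H2BC15 in the count table and within H2AC16 (chr6:27865317-27865798), which is itself counted as without a match. The form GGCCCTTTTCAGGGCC was found in 5 genes and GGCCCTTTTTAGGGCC in 3, all of class H4, and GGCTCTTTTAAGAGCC in 4 genes of classes H2B and H3.

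Promoters of the gene with the highest level in classes H1, H2B and H3, and of H4C8, are shown for the 120 bases before the RefSeq start (GRCh38.p14). H4C8 is not the H4 gene with the highest level. These genes were called lower in each 300 g group set against its control below, as was every histone gene tested. Capitals mark the CCAAT box, the octamer ATTTGCAT and the core promoter word TATAAA, in either orientation, and H4C8 has none of them in this window.
H1-5: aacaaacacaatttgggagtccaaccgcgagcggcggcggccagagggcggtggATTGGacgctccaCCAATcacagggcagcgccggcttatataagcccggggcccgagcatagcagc
H2BC12: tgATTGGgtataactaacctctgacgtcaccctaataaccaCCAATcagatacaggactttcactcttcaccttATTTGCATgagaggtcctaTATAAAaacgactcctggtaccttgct
H3C2: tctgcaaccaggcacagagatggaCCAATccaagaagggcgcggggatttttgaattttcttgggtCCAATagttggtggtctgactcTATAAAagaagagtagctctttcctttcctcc
H4C8: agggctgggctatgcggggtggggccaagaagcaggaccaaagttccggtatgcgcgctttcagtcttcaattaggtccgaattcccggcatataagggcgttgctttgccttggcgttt
They lie at chr6:27867589-27867708, chr6:27146859-27146978, chr6:26032100-26032219 and chr6:26285535-26285654, all on the minus strand.

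A RefSeq promoter was found for 56 of the 61 genes, and the 250 bases before the start were searched on both strands. CCAAT occurred in 47 of them (83.9%), against 33.0% of all 27305 promoters. It was in each of the 5, 13, 17 and 9 promoters of classes H1, H2A, H2B and H3 but in 3 of the 12 of class H4. TATAAA occurred in 35 (62.5%, against 11.1% of all). ATTTGCAT occurred in 23 (41.1%, against 1.66% of all), of which 10 belonged to class H2A and 13 to class H2B. In 10 H2A and H2B pairs the genes start head to head, with 219 to 283 bases between their starts. Where both genes of a pair had a promoter, the searched windows overlap, so a motif can count for both. The octamer before H2AC7 and that before H2BC7 are the same bases. The promoters counted above are thus not all separate sites.

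Of the 61 genes, 49 are on chromosome 6, 11 on chromosome 1 and H4C16 on chromosome 12. Their summed exons had a median length of 724 bases, against 4332 for the 16574 genes with a mean count of at least 10, and 80.3% of them had a single exon block, against 13.6%. Their median GC content was 57.4%, against 49.1%, with a value for 59 of the 61. Read pairs that map to several places were not counted, which includes reads shared by near-identical copies such as H3C14 and H3C15 or H4C14 and H4C15, so the low levels of such genes are uncertain. H2AC17 shares exon bases with H3C12 on the same strand, and H2AC7 with a gene that has no symbol, so these counts are uncertain too.

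Mean levels per length ran from 0.550 CPM per kb for H3C15 to 4170 for H1-5. H1-5, a linker histone at chr6:27866792-27867588 (minus strand), had the highest mean, followed by H3C2, an H3 gene at chr6:26031589-26032099 (minus), with 3690 CPM per kb. Of the other linker histones H1-3 had 2313 CPM per kb, H1-2 had 1983 and H1-4 had 1934. In class H2B the highest were H2BC12 with 1964 CPM per kb, at chr6:27146361-27146855 (minus), and H2BC17 with 1522. H4C3, at chr6:26103933-26104337 (plus), had 1740 CPM per kb and H4C6 had 1639. H2AC13, at chr6:27808199-27808701 (plus), had 1494 CPM per kb and H2AC14 had 1262, and the next H3 gene after H3C2 was H3C11 with 1136. H1-6, a linker histone otherwise known from testis, had 4.53 CPM per kb.

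Together the 61 genes held 3.99% ± 0.187 (SD, n = 6) of all counts in Ctrl. Class H2B held 1.06% ± 0.0513 and class H1, from 5 genes, 0.899% ± 0.0453. The classes H3, H2A and H4 held 0.695% ± 0.0304, 0.677% ± 0.0342 and 0.657% ± 0.0315. In Ctrl300 the 61 genes held 3.23% ± 0.118 (SD, n = 4), and since the experiments differed in vessel and cell density, the controls were not compared further.

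**Figure D1:**
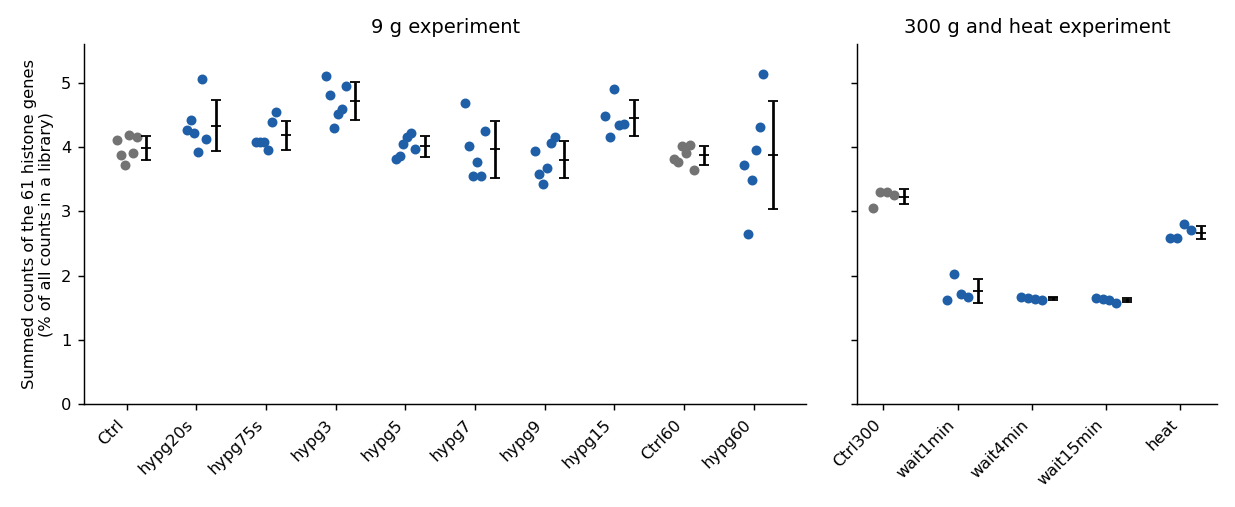
Summed counts of the 61 histone genes as a percent of all counts in each library (points), by group (x axis), with the mean and SD of each group as a bar to the right, and with controls in grey. The 12 libraries from 300 g sit between 1.57 and 2.03%, below the 4 heat libraries at 2.58 to 2.79% and the 4 Ctrl300 libraries at 3.06 to 3.31%.

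The comparison of 5 min at 300 g with its control asks what a routine centrifugation step does to the cells. Every histone gene that could be tested fell, with a narrow range of sizes. With a pause of 1 min, all 59 genes tested were called lower than in Ctrl300 (edgeR quasi-likelihood F test, Benjamini-Hochberg adjusted p under 0.05), with a median log2 fold change of −1.12, that is 0.459 of the control level. Among all 17155 genes tested 40.1% were called lower. Of the 59 histone genes 56 fell by more than 1 on the log2 scale, against 4.64% of all genes. That count depended on the scaling, with 6 of 59 against 0.653% of all genes with total counts only and 19 of 59 against 3.9% with the GC correction. The share called higher was 41.4% of all genes, and 0 histone genes. The quartiles of the histone genes were −1.19 and −1.06, and those of all genes −0.58 and 0.91, around a median of 0.01.

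H1-5 had 2941, 3171, 3248 and 3212 CPM in the 4 Ctrl300 libraries and 1547, 1979, 1677 and 1582 CPM in the wait1min libraries, a log2 fold change of −1.13 (SE 0.073, adjusted p = 1.02e-10 by edgeR). H3C2 had 1612, 1728, 1635 and 1688 CPM in Ctrl300 and 862, 1117, 930 and 898 CPM in wait1min, a log2 fold change of −1.05 (SE 0.072, adjusted p = 2.68e-10). In both genes the groups stood well apart, and library 54 was the highest of the wait1min group. H4C6 had 573, 645, 649 and 621 CPM in Ctrl300 and 291, 353, 307 and 280 CPM in wait1min, a log2 fold change of −1.26 (SE 0.069, adjusted p = 1.19e-11). H2BC12 fell from 800, 870, 882 and 844 CPM to 440, 528, 456 and 475 CPM, a log2 fold change of −1.08 (SE 0.061, adjusted p = 1.75e-11). For 58 of the 59 genes the CPM ranges of the groups did not overlap, and the exception was H2AC17, a gene with a mean of 24.3 counts. How many of all genes had ranges apart was not counted.

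Every class took part. The median log2 fold changes in wait1min were −1.15 for the 5 H1 genes, −1.13 for 13 H2A genes, −1.07 for 16 H2B genes, −1.12 for 11 H3 genes and −1.20 for 14 H4 genes. The largest fall called was that of H3C15 at −1.44 (SE 0.256, adjusted p = 5.51e-05), which rests on 0.745 to 1.22 CPM in Ctrl300 and 0.301 to 0.542 in wait1min. The smallest was −0.72 for H2BC6, a gene with several exons that had 5.70 to 7.05 CPM in Ctrl300. Among the 49 histone genes with a mean count of at least 1000, the log2 fold changes ran only from −1.30 to −1.0005.

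A longer pause left the histone genes low. In wait4min all 60 genes tested were called lower, with a median of −1.23, and in wait15min all 59, with a median of −1.26. Of all genes 40.6% were called lower and 41.7% higher in wait4min, and 40.5% lower and 41.8% higher in wait15min. In wait4min 57 histone genes fell by more than 1 on the log2 scale, against 4.06% of all genes, and in wait15min 58, against 4.86%. With total counts only these were 24 and 25 genes, against 1.01% and 1.24% of all genes. With the GC correction they were 24 and 26, against 4.13% and 4.47%. The largest called falls were those of H4C15 in wait4min, at −1.59 (SE 0.223, adjusted p = 1.02e-06), and of H3C15 in wait15min, at −2.001 (SE 0.269, adjusted p = 1.56e-06), both genes with few counts and a near-identical copy. H1-5 had 1589, 1574, 1574 and 1549 CPM in wait15min, close together and about as low as the lowest wait1min library.

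After the longest pause the class medians were −1.41 for H4 against −1.26 for H1, −1.26 for H2A, −1.19 for H2B and −1.22 for H3. Set directly against wait1min, wait15min had 1 of 58 histone genes called lower, H4C13, with 0.138% of all genes called lower. H4C13 had 193, 237, 205 and 194 CPM in wait1min and 178, 168, 170 and 158 CPM in wait15min, a log2 difference of −0.32 (SE 0.061, adjusted p = 0.0431). The H4 gene H4C3 moved as far, −0.32 (SE 0.066), but missed the threshold (adjusted p = 0.0601). Of the 58 genes, 57 had a negative value, with a median of −0.13, while a further fall during the pause was called for 1 gene. An unadjusted p under 0.05 was found for 23, and for 2193 of all 17446 genes. Signs on 1 side also occurred between untreated groups, with 59 of 61 negative in Ctrl60 against Ctrl, at a median of −0.05. Without library 54, which stood high in wait1min, the wait1min median against Ctrl300 was −1.22.

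**Figure D2:**
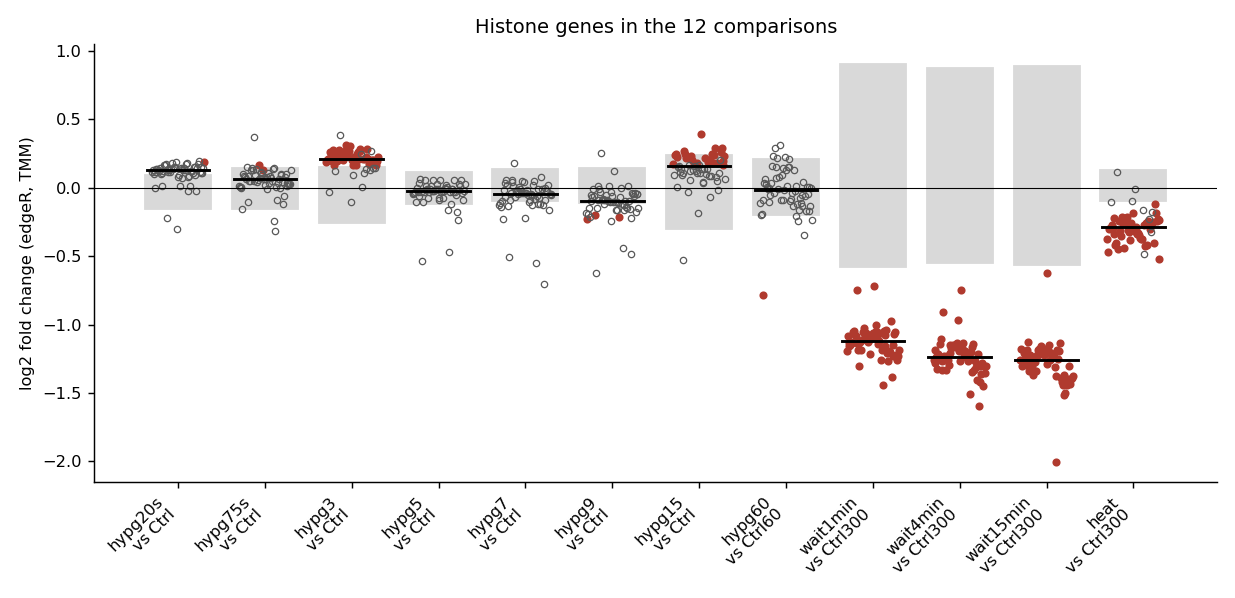
log2 fold change of each histone gene (points, in alphabetical order within a comparison) in the 12 comparisons with the matching control, filled red where called and open where not, with their median as a black line and the range between the quartiles of all genes tested as a grey box. The points lie below the boxes in the 300 g comparisons, with medians of −1.12, −1.23 and −1.26, and most lie above the box in hypg3, with a median of 0.21.

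Over all genes with a known GC content, the log2 fold change at wait1min fell as GC content rose (Spearman rho −0.69 across 16918 genes, which are not independent replicates), and rho was −0.66 at wait4min and at wait15min. With a correction for GC content the histone medians were −0.70 in wait1min, −0.82 in wait4min and −0.89 in wait15min, and 58 to 61 genes were called lower under each alternative run. The part of GC content in the falls was otherwise not tested. The summed level of the 11 T lymphocyte markers moved in the same direction, from a mean of 3898 CPM in Ctrl300 to 2976 CPM in wait1min, and was 3901 CPM in heat, and its part was not tested. In bulk RNA a lower level from fewer cells in S phase and from less RNA per cell cannot be told apart.

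Lists of genes with related functions had calls in both directions at wait1min, as had all genes, of which 41.4% were called higher and 40.1% lower. Of 10 variant histones tested, which are made outside S phase as well, 7 fell and 2 rose, with a median of −0.32 and the most abundant, MACROH2A1, at −0.32. H2AX, whose mRNA can also end in the stem-loop, fell by 1.18 on the log2 scale and the linker variant H1-10 by 1.16, whereas H3-3A, a replacement H3, rose by 0.14 and H2AZ1 was at 0.03, not called. Of 18 S phase genes 14 fell and 4 rose, with a median of −0.46: CDT1, which licenses replication origins, changed most at −1.03 (SE 0.040, adjusted p = 1.43e-13), while PCNA, the sliding clamp of the DNA polymerases, rose by 0.20.

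The factors that act on histone genes and their mRNAs were called in either direction at shares that stand beside the same 41.4% and 40.1% of all genes. Of 19 genes of histone mRNA 3′ end processing and decay, 8 rose and 8 fell, among the latter the most abundant, SRRT, at −0.74. SLBP itself had 92.1, 96.8, 95.1 and 93.9 CPM in Ctrl300 and 106, 110, 106 and 104 CPM in wait1min, which after normalization was a log2 difference of −0.07 (SE 0.041, adjusted p = 0.128), not called. It was called lower after the longer pauses, at −0.11 in wait4min (SE 0.034, adjusted p = 0.00609) and −0.11 in wait15min (SE 0.036, adjusted p = 0.0102). Total counts only moved the median of all genes from 0.01 to 0.27 in both comparisons, a shift larger than these falls. The value of SLBP at that scaling is not given. XRN1, a 5′ to 3′ exonuclease, rose by 2.73 (SE 0.081, adjusted p = 4.86e-15). Of 12 genes of histone gene transcription 5 rose and 7 fell, E2F2 of the S phase transcription factors at −0.84. NPAT, the coactivator of histone genes in S phase, had 16.3, 12.6, 13.4 and 14.0 CPM in Ctrl300 and 79.7, 90.8, 86.8 and 85.7 CPM in wait1min, a log2 fold change of 2.37 (SE 0.069, adjusted p = 4.21e-15), opposite in sign to every histone gene. Of 18 histone chaperones 6 rose, with ATRX at 3.23 the largest, and 10 fell, among them SSRP1 of the FACT complex at −0.80.

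After 5 min at 42 °C the histone genes also fell. Of 60 tested, 51 were called lower and 0 higher, where 10.2% of all 16655 genes were called lower and 10.6% higher. Their median log2 fold change was −0.29, a level of 0.818 of the control, and 0 fell by more than 1. The quartiles of the histone genes were −0.36 and −0.23, and those of all genes −0.10 and 0.13. The 9 genes not called were H1-6, H2AC17, H2BC3, H2BC6, H3C14, H3C15, H4C11, H4C14 and H4C15, all with a mean count under 1000, and each of the 49 genes above that level was called lower.

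H4C9 fell most, from 413, 469, 466.1 and 456 CPM in Ctrl300 to 317, 308, 337 and 322 CPM in heat, a log2 fold change of −0.52 (SE 0.044, adjusted p = 7.29e-07). H1-3 fell from 1750, 1808, 1851 and 1782 CPM to 1294, 1283, 1375 and 1354 CPM, by 0.47 on the log2 scale (SE 0.035, adjusted p = 1.66e-07). H1-5 fell to 2555, 2517, 2733 and 2676 CPM, by 0.29 (SE 0.041, adjusted p = 9.11e-05). The heat libraries lay below all Ctrl300 libraries in each of these genes. H4C3 changed least among the abundant genes, at −0.12 (SE 0.039, adjusted p = 0.0400), with 561 to 626 CPM in heat against 600 to 639 in Ctrl300, so that its ranges overlapped, and it lost its call in 7 of the alternatives run, 6 of them with 1 library left out. The CPM ranges did not overlap for 49 of the 60 genes, and the share of all genes was not counted.

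Heat and 300 g share the Ctrl300 libraries, so their values are given side by side only. The H3 class, with a median of −0.37, had the lowest of the class medians in heat, and the others were −0.30 for H1, −0.29 for H2A, −0.27 for H2B and −0.24 for H4. H4C9 was at −0.52 in heat and −1.18 in wait1min, H4C3 at −0.12 and −1.07, H1-3 at −0.47 and −1.08, and H2BC12 at −0.22 and −1.08.

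**Figure D3:**
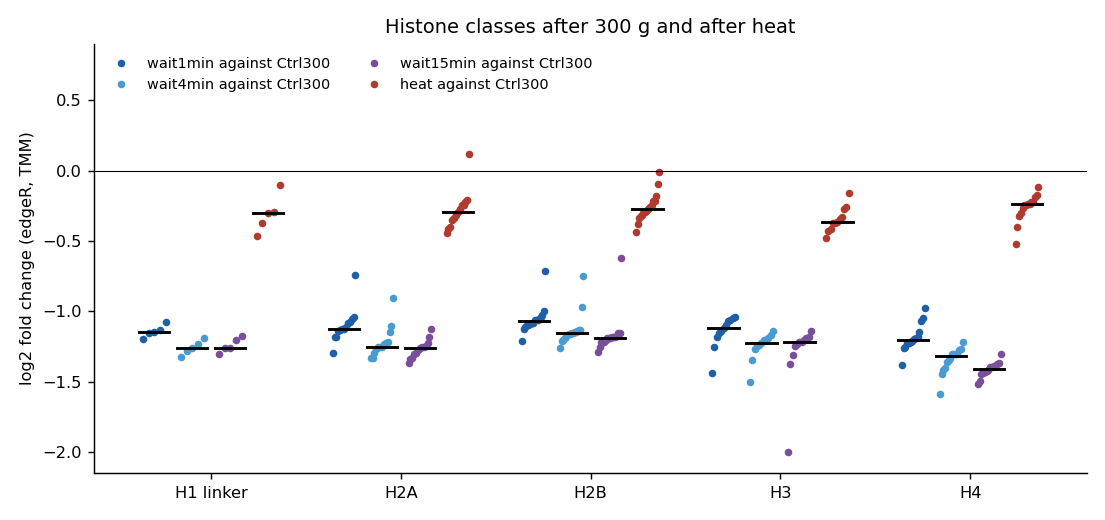
log2 fold change of each histone gene (points) by class (x axis) after 300 g with pauses of 1, 4 and 15 min and after heat, each against Ctrl300, with class medians as black lines. The class medians lie between −1.41 and −1.07 after 300 g and between −0.37 and −0.24 after heat.

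The counts of the related lists after heat stand beside 10.6% of all genes called higher and 10.2% lower. Of 10 variant histones 2 fell and 0 rose, and H2AX and H1-10, which fell in wait1min, were at −0.05 and −0.0075, neither called. Of 18 S phase genes 1 fell, the flap endonuclease FEN1 at −0.14, and 3 rose, and MCM7, a subunit of the replicative helicase and the most abundant of them, was at 0.03, not called. Of 19 genes of 3′ end processing and decay 3 fell, CPSF3, the endonuclease that cleaves histone pre-mRNA, most at −0.36 (SE 0.042, adjusted p = 1.75e-05). SLBP was at −0.01 and NPAT at −0.21, neither called. Of 12 transcription genes 4 fell and 1 rose, CCNE2, a cyclin of the entry into S phase, at 0.31, and of 18 chaperones 3 fell, CHAF1A of the assembly factor CAF-1 most at −0.16. The GC trend over all genes was weak in heat (Spearman rho 0.16 across 16430 genes), and the histone median with a GC correction was close to that without.

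**Figure D4:**
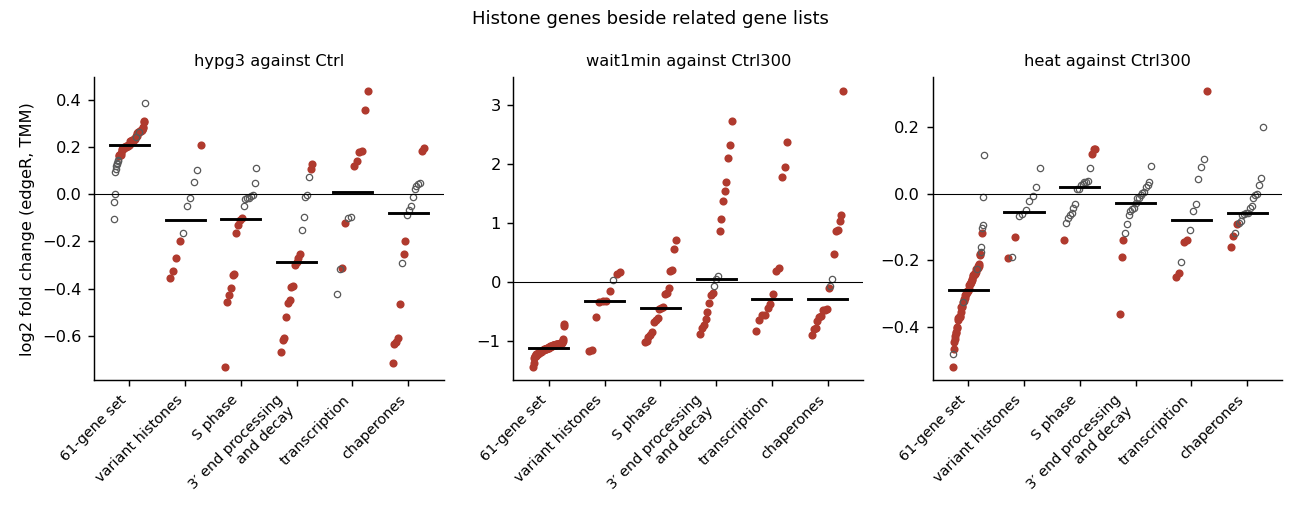
log2 fold change of the histone genes and of 5 lists of related genes (points, filled red where called) in hypg3, wait1min and heat, each against its control, with medians as black lines and a y axis of its own in each panel. In wait1min and heat the histone median (−1.12 and −0.29) is the lowest of the 6, and in hypg3 it is the highest at 0.21.

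At 9 g the histone genes were higher in hypg3 and, less widely, in hypg15, and few were called at the other times. In hypg3 48 of 61 were called higher and 0 lower, where 16.9% of all 16194 genes were called higher and 24.4% lower. The median log2 fold change was 0.21, a level of 1.16 times the control, with quartiles of 0.19 and 0.26, against −0.26 and 0.15 for all genes. The genes held 4.71% ± 0.297 (SD, n = 6) of all counts, against 3.99% ± 0.187 in Ctrl. For 38 genes the CPM ranges of the 6 hypg3 and 6 Ctrl libraries did not overlap, and the share of all genes was not counted. Calls were spread over the classes: 4 of 5 H1 genes, 12 of 14 H2A, 15 of 17 H2B, 8 of 11 H3 and 9 of 14 H4.

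H2BC14 had the largest called change in hypg3, with a lowest, median and highest value of 350, 385 and 407 CPM in Ctrl and 452, 469 and 530 CPM in hypg3, a log2 fold change of 0.31 (SE 0.059, adjusted p = 0.000829). H3C2 had 1965, 2100 and 2180 CPM in Ctrl and 2232, 2485 and 2600 CPM in hypg3, a log2 fold change of 0.21 (SE 0.060, adjusted p = 0.0103). Neither gene's groups overlapped. H1-5 had 3423, 3649 and 3863 CPM in Ctrl and 3841, 4294 and 4759 CPM in hypg3, which overlap at the edge, with a log2 fold change of 0.21 (SE 0.069, adjusted p = 0.0237). H2AC14 went from 609, 657 and 700 CPM to 728, 794 and 824 CPM, 0.23 on the log2 scale (SE 0.057, adjusted p = 0.00480). Of the 13 genes without a call, 3 were abundant, H4C1 at 0.13, H4C3 at 0.14 and H4C5 at 0.14, and the others had a mean count under 1000.

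In hypg3 the related lists had more genes called lower than higher in all but 1 list, as had all genes, with 24.4% lower and 16.9% higher. Of 18 S phase genes 10 fell and 0 rose, with PCNA at −0.34 and MCM6, another helicase subunit, at −0.40. Of 10 variant histones 4 fell, H3-3A at −0.35 and H2AZ1 at −0.27 among them, and 1 rose, H2AX, at 0.21. Of 19 processing and decay genes 12 fell and 2 rose. SLBP fell by 0.27 on the log2 scale (SE 0.037, adjusted p = 7.62e-05), while NPAT at −0.42 was not called (adjusted p = 0.0687). Of 12 transcription genes 6 rose and 2 fell, and E2F2, a factor that drives genes of S phase, rose by 0.36. Of 18 chaperones 2 rose and 7 fell.

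In hypg15, from 5 libraries, 26 of 61 histone genes were called higher and 0 lower, at a median of 0.16. Of all genes 25.4% were called higher there and 27.9% lower. H2BC6 had the largest change, from 8.11, 9.20 and 9.32 CPM in Ctrl to 10.4, 11.9 and 12.1 CPM, 0.39 on the log2 scale (SE 0.076, adjusted p = 0.000562). H4C3 went from 708, 774 and 830 CPM to 842, 875 and 1015 CPM, 0.26 (SE 0.073, adjusted p = 0.00677). H1-5 went from 3423, 3649 and 3863 CPM to 3887, 4221 and 4695 CPM, 0.24 (SE 0.079, adjusted p = 0.0162). In these 3 genes the groups did not overlap. That held for 10 of the 61, and the share of all genes was not counted. H4C9 and H3C11, which were called in hypg3, were at 0.06 and 0.10 here, neither called. SLBP fell by 0.35 (SE 0.050, adjusted p = 4.90e-05) and NPAT by 0.89 (SE 0.149, adjusted p = 0.000196).

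The values in hypg3 and hypg15 depended on the processing. Across all genes GC content and log2 fold change went up together (Spearman rho 0.67 across 15984 genes in hypg3 and 0.67 across 15682 in hypg15). With a correction for GC content 24 histone genes were called higher in hypg3, at a median of 0.12, where 2004 of all 16194 genes were called higher. In hypg15 14 were then higher and 3 lower, at a median of 0.03, and with a correction for exon length 4 were higher and 1 lower, at −0.01. Of all 15875 genes 3037 were higher and 2885 lower with the GC correction, and 4621 and 4062 with the length correction. With library 75 put back, 3 were called higher, and without library 78 there were 10. The libraries of these 2 groups carry the numbers 69 to 80 and the other 48 of the 9 g experiment 1 to 48, so whatever goes with the numbering and these times cannot be told apart.

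**Figure D5:**
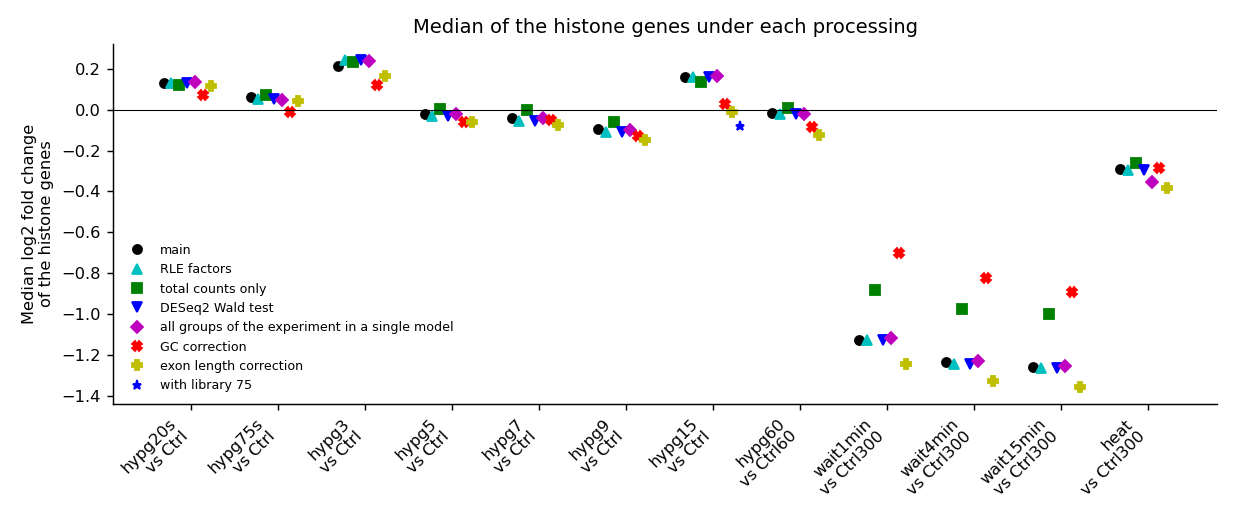
Median log2 fold change of the histone genes in the 12 comparisons with the matching control (x axis) as reported (main, black circles) and under each other processing (other symbols). The medians stay between −1.35 and −0.70 after 300 g, while in hypg15 they run from −0.08 to 0.16.

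At the remaining times at 9 g the histone genes had at most 3 calls each, counts that varied with the processing. In hypg20s 1 was called higher and 0 lower, where 6.66% of all genes were higher and 8.58% lower: H4C9, with 576, 596 and 624.9 CPM in Ctrl and 614, 656 and 801 CPM after 20 s, at 0.19 (SE 0.059, adjusted p = 0.0417). An unadjusted p under 0.05 was found for 25 of the 61 genes in hypg20s and for 11 in hypg75s. Over all genes it was found for 5095 of 16137 and for 6734 of 16261. NPAT was called lower in hypg20s, at −0.51 (SE 0.131, adjusted p = 0.0190). In hypg75s 2 were higher, H2BC14 at 0.17 (SE 0.047, adjusted p = 0.0142) and H2BC26 at 0.13, and 0 lower, against 16.8% and 14.4% of all genes. The medians of the 61 genes were 0.13 and 0.06. Other processing gave 0 to 6 genes called higher in hypg20s. In hypg75s, 16 were called higher with total counts only, and with the GC correction 0 were higher and 2 lower, at a median of −0.014. Of all 16261 genes 2984 were called higher with total counts only, and 1965 higher and 2061 lower with the GC correction.

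In hypg5 and hypg7 0 histone genes were called in either direction, with 3 of 61 at an unadjusted p under 0.05 in each, and DESeq2 called 0 in hypg5 and 1 lower in hypg7. Of all genes 4.33% were higher and 1.69% lower in hypg5, and 6.64% and 6.19% in hypg7. An unadjusted p under 0.05 was found for 3676 of all 16284 genes in hypg5 and 4670 of 16438 in hypg7. H1-5 had 3396, 3648 and 3934 CPM in hypg5 and 3101, 3474 and 4253 CPM in hypg7, both around the Ctrl values given above. In hypg9 3 genes were called lower and 0 higher, against 8.32% and 11.3% of all genes: H1-3 at −0.23 (SE 0.064, adjusted p = 0.0210), H3C11 at −0.21 and H2AC16 at −0.20. H1-3 had 1602, 1697 and 1982 CPM in hypg9 and 1860, 2007 and 2147 CPM in Ctrl, which overlap. In hypg9 20 of the 61 genes had an unadjusted p under 0.05, as had 5435 of all 16385 genes. A negative value was found for 55, and the median was −0.10. With the GC correction 24 histone genes were called lower, where 2439 of all 16385 genes were. SLBP was called lower in hypg7, at −0.16 (SE 0.036, adjusted p = 0.0119), and in hypg9, at −0.20 (SE 0.035, adjusted p = 0.00132).

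In hypg60 the histone genes varied more between libraries than in any other group. Their share of all counts was 3.87% ± 0.835 (SD, n = 6), from 2.64% in library 44 to 5.14% in library 48, against 3.87% ± 0.152 in Ctrl60. H1-5 had 2309, 3368 and 4589 CPM in hypg60 against 3343, 3612 and 3763 CPM in Ctrl60. Only H1-6 was called, lower, with 1.39, 1.98 and 2.91 CPM against 2.95, 3.47 and 3.83 CPM, a log2 fold change of −0.79 (SE 0.162, adjusted p = 0.00226), where 13% of all genes were called lower and 17.1% higher. Without library 44 9 genes were called higher, and without library 48 2 were called lower. SLBP fell by 0.36 and NPAT by 0.59 in hypg60. The largest called changes in the other lists were those of the chaperone ASF1A at −0.83, H3-3A at −0.48, MCM6 at −0.47 and CPSF3 at −0.40. Ctrl60 set against Ctrl had 0 of 61 histone genes called (4 at an unadjusted p under 0.05) and 0.0124% of all genes, by edgeR. An unadjusted p under 0.05 was found for 578 of all 16109 genes, and 59 of the 61 histone genes had a negative value.

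The changes after 5 min at 300 g and 5 min at 9 g were compared directly (wait1min against Ctrl300 and hypg5 against Ctrl, 20 libraries, edgeR). For 59 of 61 histone genes the change was lower at 300 g, and for 0 higher, where 37.9% of 18002 genes were called lower. The median difference was −1.09 on the log2 scale, and the 2 genes not called, H2AC7 and H2AC17, had few counts. H1-5 was at −1.13 at 300 g and −0.03 at 9 g. The experiments also differed in vessel, cell density and the pause of 1 min before lysis, and these cannot be told apart from the acceleration.

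How far a gene moved was also set beside its sequence. Over the histone genes tested the Spearman rho of the log2 fold change with GC content was −0.12 in wait1min (57 genes), −0.06 in heat (58) and 0.17 in hypg3 (59), and with exon length 0.04, −0.19 and 0.08. Of the genes in head-to-head pairs, given here as a description, H2AC6 and H2BC4 were at −1.19 and −1.09 in wait1min, at −0.35 and −0.18 in heat and at 0.26 and 0.21 in hypg3. H2AC12 and H2BC12 were at −1.14 and −1.08, −0.29 and −0.22, and 0.23 and 0.24. H2AC17 and H2BC17 lay further apart, at −0.75 and −1.13, 0.12 and −0.32, and 0.12 and 0.24. H4C8, whose 120 bases held none of the 3 motifs, was at −1.23, −0.24 and 0.20.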

How the data were processed

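RNA of 80 Jurkat libraries was sequenced after depletion of ribosomal RNA with a strand-specific kit. The authors deposited 1 table of raw counts per gene. Per the file headers, featureCounts 2.0.3 was set to reverse-stranded pairs and to the Ensembl release 104 models of GRCh38, and read pairs with several mapping places were not counted. The submitters' processing notes name Trim Galore 0.6.5, STAR 2.7.3a, featureCounts 2.0.1 and DESeq2 1.28.1. A record broken over 3 lines was left out, as was library 75.

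Each comparison was fitted on its 2 groups with the edgeR 4.0.16 quasi-likelihood F test in R 4.3.3. TMM factors were used, genes passed filterByExpr with a minimum count of 10, and p-values were adjusted by Benjamini-Hochberg over all genes tested. A gene was called at an adjusted p under 0.05. Standard errors were derived from the F statistic. GC content and transcripts came from GENCODE v29. CPM were counts scaled to a common library total. The script was tested on simulated data. Alternatives were no filter, RLE factors, total counts only, DESeq2 1.42.0, 1 model for all groups of an experiment, lowess corrections for GC content and exon length, library 75 put back, and each library left out in turn in 7 comparisons (67 fits).

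The members and lists were chosen with earlier results of these data known. Genes named in full are the 2 with the highest CPM per kb in each class, the called gene with the largest change in each direction in each comparison, and those at the threshold. From each list they are the most abundant gene, SLBP, NPAT, and the gene with the largest called change in hypg60, wait1min and heat. Other genes were named after their values were seen, and 1 gene that the rule picks is not reported here.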

Additional observations from a re-analysis of the deposited data

Results flagged for a closer look

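Of 240 groups of libraries examined (the summed CPM of all histone genes, of each class, and the CPM of the 10 genes with the highest levels in their classes, in 15 groups), 8 held a library far from the others by Dixon's test. Chance flags about 1 in 20 groups. Library 54 of wait1min stood above the other 3 in the summed CPM of class H2A (3378 against 2609 to 2734), of class H4 (3215 against 2532 to 2647) and in H2AC13 (417 against 328 to 341). Without it the median log2 fold change in wait1min was −1.22. Library 17 of hypg20s stood above the other 5 in H2BC12 (1302 CPM against 1057 to 1146) and in H4C6 (941 against 711 to 787). Library 49 of Ctrl300 stood below the other 3 in H3C11 (466.4 CPM against 533 to 542) and in H4C3 (599.8 against 634 to 639). Library 64 of wait15min stood below the others in H4C3, at 271 CPM against 290 to 292.

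The changes after 5 min at 300 g and 5 min at 9 g differed for 59 of the 61 histone genes, by the edgeR test of the difference that the report describes, all of them lower at 300 g. The vessel, the cell density and the pause before lysis differed between the experiments as well, and their part in the difference was not tested.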

How the results depend on the processing

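After 300 g and heat the counts of histone genes called lower stayed within 1.5 times the reported counts under each alternative. The median log2 fold changes after 300 g (wait1min, wait4min, wait15min) were −0.88, −0.98 and −0.996 with total counts only, which also moved the median of all genes to 0.25, 0.27 and 0.27. They were −0.70, −0.82 and −0.89 with the GC correction. With the exon length correction they were −1.33 in wait4min and −1.35 in wait15min, −0.38 in heat, and wait15min was at −1.29 with no filter. Leaving out 1 library gave medians from −1.22 to −1.07, −1.27 to −1.22, −1.29 to −1.22 and −0.32 to −0.27 (heat), with 58 to 60, 58 to 60, 59 to 60 and 50 to 52 genes called lower.

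In hypg3, 28 genes were called higher with a single model, 24 with the GC correction (median 0.12) and 30 with the length correction, and leaving out 1 library gave 40 to 52 (medians 0.19 to 0.26). In hypg15, 11 were higher with a single model, 14 with the GC correction (3 lower, median 0.029), 4 with the length correction (1 lower, median −0.011) and 3 with library 75 (median −0.079). Leaving out 1 library gave 10 to 30 higher and 0 to 1 lower (medians 0.10 to 0.20). There H4C6 changed sign with the GC correction (−0.00669), with the length correction (−0.056) and with library 75 (−0.092), H3C2 with the length correction (−0.011) and library 75 (−0.061), and H2BC12 (−0.028) and H1-5 (−0.018) with library 75. In hypg20s, 6 were higher with no filter, 4 with total counts, 5 by DESeq2, 0 in a single model and 4 with either correction. In hypg75s, 16 were higher with total counts, 0 in a single model, 0 with the GC correction (2 lower, median −0.014) and 1 with no filter, RLE factors, DESeq2 or the length correction. In hypg5, 3 were lower with the GC correction. In hypg7, 1 was lower with no filter, RLE factors or DESeq2, 2 in a single model, 3 with the GC and 2 with the length correction. In hypg9, 5 were lower with no filter, 6 by DESeq2, 1 in a single model, 24 with the GC and 20 with the length correction. In hypg60, 1 was higher with total counts or a single model and 4 were lower with the GC and 3 with the length correction, and leaving out 1 library gave 0 to 9 higher and 1 to 2 lower (medians −0.12 to 0.09). Of all genes, the GC correction called 2004 of 16194 higher in hypg3, 3037 of 15875 higher in hypg15 and 2439 of 16385 lower in hypg9. The length correction called 3734, 4621 and 1526 of them. With total counts 2984 of 16261 were higher in hypg75s. The causes were not tested.

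Among all genes, total counts moved the share of calls that were higher from 50.8 to 62.0% in wait1min, 50.6 to 62.9% in wait4min, 50.8 to 62.9% in wait15min, 51.1 to 65.6% in heat, 51.8 to 67.3% in hypg7, 57.5 to 73.6% in hypg9 and 56.8 to 69.5% in hypg60. The GC correction moved it from 71.9 to 48.4% in hypg5, from 43.7 to 54.7% in hypg20s and from 57.5 to 47.1% in hypg9, and the length correction from 41.0 to 53.4% in hypg3. No paired analysis was possible because the library numbers are unique to each library. The 12 histone genes with a mean count under 1000 limit what depth can show. Counting and library preparation without molecular identifiers add error that the counts do not show. The alternatives with the 9 g and 300 g difference and with libraries left out in hypg3 and hypg60 were chosen after seeing the data.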
